A study of Mus musculus with 6 samples.

Results

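The genes of the proteasome were read from the livers of 6 C57BL/6 mice profiled by RNA sequencing. Members were the protein-coding genes of the deposited tables whose names start with Psma, Psmb, Psmc or Psmd followed by a digit, without the interferon-inducible Psmb8 and Psmb9. The rule uses names and no measured value, and it found 38 of the 54320 genes listed, of which 22058 were protein-coding. Of these 38, 17 encode the core particle, 17 encode the regulatory particle, 3 (Psmd5, Psmd9 and Psmd10) encode chaperones of assembly, and 1 (Psmc3ip) is no proteasome gene. The 3 control mice (flox) were HuR flox/flox, with loxP sites on both alleles of Elavl1, whose product HuR is an RNA-binding protein, and the labels give no Cre for them. The other 3 mice were labelled HuR HKO (HuRflox/flox Alb-Cre+/-): they carry the same floxed alleles and a Cre recombinase under the albumin promoter, which is active in hepatocytes. All 6 mice were 11 weeks old and had been on the diet called MCD in the labels for 3 weeks. As labelled, the comparison asks what differs in the liver when hepatocytes lack HuR, on this diet.

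The proteasome is the protease that degrades most ubiquitin-tagged proteins of the cell. Its core particle is a barrel of stacked rings, in which alpha subunits (Psma genes) form the outer rings and the gate, and beta subunits (Psmb genes) form the inner rings and hold the proteolytic sites. The regulatory particle caps the barrel: a ring of ATPases (Psmc genes) unfolds the substrate, and the non-ATPase subunits (Psmd genes) bind ubiquitin, remove it and hold the assembly together. Every nucleated cell makes these subunits, hepatocytes included. When proteasome activity drops, cells raise many of the subunit genes together through the transcription factor encoded by Nfe2l1.

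The targeted gene was not lower under the HKO label. Levels are in FPKM, here reads per length of gene and size factor of library. Elavl1, which encodes HuR, stood at 3.51, 2.36 and 2.99 FPKM in flox 1, 2 and 3. In HKO 1, 2 and 3 it stood at 5.77, 4.28 and 4.91 FPKM. Values of libraries follow this order throughout. All 3 HKO values lay above all 3 flox values, with a log2 fold change of 0.67 (SE 0.23, adjusted p = 0.208, limma). The tables give 1 value for the whole gene, so reads from outside the floxed part and from cells other than hepatocytes are in it. "HKO" therefore means the libraries labelled HKO, and every direction given here follows the labels and would turn if the group labels were exchanged.

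Reads assigned to genes numbered between 16769082 and 20633215 per library. Flox 2 stood apart from the rest, with reads in 16608 genes against 19920 to 22067 and with 2.26% mitochondrial reads against 4.34% to 4.69%. Its values also depended on gene length: the slope on log2 length of a gene's deviation from its mean was -0.142 in flox 2, -0.0402 in flox 1 and between 0.0384 and 0.0488 in the other libraries. The spread between flox libraries was wider than that between HKO libraries in 34 of the 37 members tested (91.9%) and in 89.3% of all genes tested. Libraries from whole liver mix cell types, and fewer cells of a type cannot be told apart from less RNA per cell. Summed hepatocyte markers, most of whose signal is Alb, overlapped between groups, at 45750 to 58670 FPKM for the flox mice and, for HKO, 46270 to 59570 FPKM. Of the 9 markers tested, 6 were negative (median -0.23) and 2 were lower at an unadjusted p below 0.05. These were Apoa1, at 7954, 14620 and 12050 FPKM across flox, against 5520, 5371 and 6892 FPKM across HKO, and Ass1, at 919, 1509 and 1677 FPKM across flox, against 631, 668 and 738 FPKM across HKO. Neither overlapped between groups (log2 fold changes -0.93 and -0.97), and their part in the proteasome values was not tested. Flox 3 was far above every other library in Cps1 and Fgb of the same list. Cps1 read 196, 122 and 1419 FPKM across flox, against 494, 547 and 486 FPKM across HKO. Fgb read 789, 616 and 3684 FPKM across flox, against 677, 839 and 938 FPKM across HKO. Alb in flox 3, at 36360 FPKM, lay within the HKO values.

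Most proteasome genes had lower values in HKO, yet none passed the test over all genes. A gene was tested where its mean was at least 0.5 FPKM. That held for 13787 genes and for 37 members, and Psmb11 was left out. By limma on log2(FPKM + 0.5), with p-values adjusted over all tested genes at 0.05, 0 members were higher and 0 were lower, where 1 gene each way (0.00725% each) passed in all. The log2 fold change of HKO against flox was negative in 30 members and positive in 7. Under total read scaling, where the median of all genes moved to 0.25, the split was 24 to 13. The median as deposited was -0.67 over the members, against -0.00 over all genes tested, with 6912 negative and 6875 positive. At an unadjusted p below 0.05, 19 members were lower and none was higher (0 of 37). Among all genes tested, 10.8% were lower and 10.1% higher by the same measure. Voom on the recovered reads passed 0 members, with 4 lower and 1 higher at an unadjusted p below 0.05. Of all 13787 genes tested by voom, 365 were lower and 3013 higher by that measure. Total read scaling gave 3 members lower and 1 higher by it, against 420 and 2900 of 13828 genes tested.

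The groups did not overlap, with all 3 HKO values below all 3 flox values, in 21 of the 37 members. The same held for 16.7% of all genes tested. This share, and the 10.8% lower at an unadjusted p below 0.05, also stand beside the counts of gene groups given below as deposited. The reverse, all HKO values above all flox values, occurred in 1 member (Psmd5) and in 15.3% of all genes tested. The standard errors of the members' log2 fold changes were 0.18 to 0.71 with n = 3 per group. The smallest adjusted p among the members was 0.157, for Psmd4. In 9 members (Psma1, Psma3, Psmd1, Psmd6, Psmd7, Psmd10, Psmd11, Psmd14 and Psmc3ip) the log2 fold change was within 1 SE of 0, and its sign turned under at least 1 alternative in each.

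**Figure D1:**
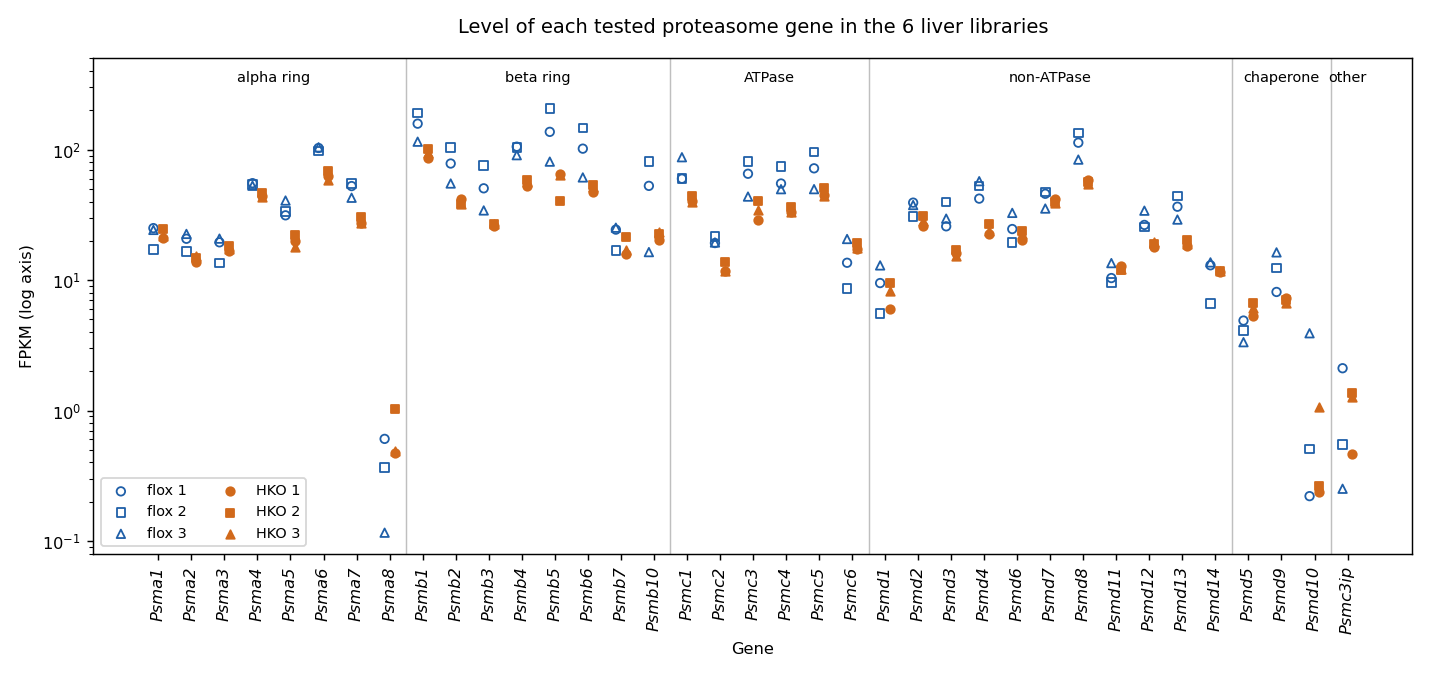
FPKM (log axis) of the 37 tested genes in each of the 6 libraries, grouped by the part of the particle they encode; open blue symbols are flox and filled orange symbols are HKO. The 3 HKO symbols lie close together and below the flox symbols for most genes, while the flox symbols of the beta ring are spread, with flox 2 highest in 6 of 8.

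The alpha ring shapes the barrel's ends and the gate through which substrates enter. Its 8 genes were all tested, and 6 had negative and 2 positive log2 fold changes (median -0.35). In 5 of them HKO lay wholly below flox, and 3 (Psma5, Psma6 and Psma7) were lower at an unadjusted p below 0.05. Levels ranged from 82.5 FPKM for Psma6 to 17.2 FPKM for Psma2, with Psma8 far below at 0.513 FPKM.

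Psma7, the alpha subunit with the smallest p, lies on chr2:180036373-180042433, minus strand, in GRCm38.p6. It read 52.5, 54.9 and 42.7 FPKM among flox mice, with 27.4, 30.6 and 27.3 FPKM among HKO mice. The highest HKO value stayed well under the lowest flox value (log2 fold change -0.80, SE 0.20, adjusted p = 0.163, limma). Psma5 read 31.4, 33.4 and 40.7 FPKM across flox, against 19.9, 22 and 18.1 FPKM across HKO, in library order. Again no value overlapped, and the log2 fold change was -0.80 (SE 0.20, adjusted p = 0.170, limma). Psma6, the alpha gene with the highest mean FPKM, read 103, 98.0 and 104 FPKM for the flox mice and, for HKO, 62.2, 68.6 and 58.9 FPKM. The flox values of Psma6 were close to each other, and all HKO values lay under them (-0.68 on the log2 scale, SE 0.19, adjusted p = 0.179, limma).

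On the positive side stood Psma8 and Psma1. Psma8 encodes an alpha subunit made in the testis, where it takes the place of Psma7. It read 0.606, 0.367 and 0.116 FPKM among flox mice, with 0.471, 1.03 and 0.487 FPKM among HKO mice, which overlap (log2 fold change 0.44, SE 0.34, adjusted p = 0.453, limma). These values rest on 3 reads in flox 3 to 36 reads in HKO 2, and the testis markers Tnp1, Prm1 and Prm2 had no read in any library. Psma1 was at 25.0, 17.1 and 24.2 FPKM across flox, against 21, 24.7 and 21.8 FPKM across HKO, with flox 2 lowest of all 6 (0.04, SE 0.23, adjusted p = 0.922, limma). The remaining alpha genes, Psma2, Psma3 and Psma4, had log2 fold changes of -0.43, -0.02 and -0.27. Psma2 and Psma4 did not overlap between groups, whereas Psma3 did. The sign of Psma4 turned under total read scaling, with 0.02, and with the length and level trends removed, with 0.13.

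With all 6 libraries, the beta ring had the lowest median log2 fold change of the 4 subunit groups. Without flox 2 it was still the lowest, but narrowly, at -0.63 against -0.61 for the ATPases. With flox 2 left out and the length trend also removed, the beta ring (-0.50) was not the lowest, with -0.58 for the non-ATPases and -0.51 for the ATPases. All 8 tested beta genes were negative (median -0.91), although Psmb7 turned to 0.02 under total read scaling, 6 were lower at an unadjusted p below 0.05, and 6 did not overlap between groups. The beta genes also had higher FPKM than those of the alpha ring, with a median of 68.2 FPKM over genes against 24.9 FPKM. Psmb1 had the highest mean FPKM of the members, at 124 FPKM, but ranks between genes depend on the gene length used. Its length in the tables was 1036 bases, against 4595 for the union of its exons in GENCODE M21. Psmd8 had more reads than Psmb1, with 6395 against 3034 in flox 1.

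Psmb5 encodes the beta subunit with the chymotrypsin-like site, the main target of proteasome inhibitor drugs, and lies on chr14:54614119-54618022, minus strand. Its values were 137, 207 and 80.9 FPKM for the flox mice and, for HKO, 64.8, 40.6 and 64.2 FPKM. HKO lay wholly below flox, though flox 3 was nearer to HKO 1 than to flox 2. The log2 fold change was -1.25 (SE 0.39, adjusted p = 0.195, limma). It was the lowest of the members as deposited, but without flox 2 (-0.921 against -0.997) and without HKO 2 (-1.02 against -1.10) Psmd4 was lower, and with the length trend removed Psmd3 was (-0.96 against -1.03). Psmb6, whose product holds the caspase-like site, read 102, 147 and 61.2 FPKM among flox mice, with 47.1, 54.0 and 51.9 FPKM among HKO mice. Here too flox 3 was the flox library next to HKO, without overlap (-0.92, SE 0.34, adjusted p = 0.214, limma).

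Psmb7, which encodes the trypsin-like subunit, did not share this pattern of values. It read 24.4, 16.9 and 25.2 FPKM across flox, against 15.9, 21.3 and 17.1 FPKM across HKO. Flox 2, the highest library for Psmb5 and Psmb6, was below HKO 2 and HKO 3 for Psmb7 (log2 fold change -0.27, SE 0.24, adjusted p = 0.508, limma). The sign turned to 0.02 under total read scaling and under voom. Psmb7 shares exonic bases with Nek6 on the opposite strand (8.10 FPKM), so its reads are uncertain if counting ignored strand.

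Psmb10 encodes the inducible subunit that replaces Psmb7 in the immunoproteasome, the form made under interferon and in immune cells. It read 52.7, 80.9 and 16.4 FPKM for the flox mice and, for HKO, 20.2, 22.5 and 23.2 FPKM. Flox 1 and 2 were far above HKO, while flox 3 was the lowest of all 6 (log2 fold change -0.90, SE 0.55, adjusted p = 0.359, limma). The other inducible subunits, which are no members, likewise had flox 2 and flox 1 highest and flox 3 lowest. Psmb8 read 18, 38.8 and 6.11 FPKM among flox mice, with 6.89, 6.65 and 6.32 FPKM among HKO mice (-1.25, SE 0.60, adjusted p = 0.276, limma). Psmb9 read 6.29, 9.56 and 3.05 FPKM across flox, against 3.75, 3.69 and 3.42 FPKM across HKO (-0.60, SE 0.38, adjusted p = 0.374, limma).

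Several markers of other cells differed between the same libraries. The leukocyte markers summed to 100.2 to 966 FPKM for the flox mice and, for HKO, 109 to 145 FPKM, and 5 of the 6 tested were negative. Among them, Cd74 read 329.5, 779 and 75.9 FPKM among flox mice, with 106, 78.4 and 81.1 FPKM among HKO mice, with flox 1 and 2 high as for Psmb10. Ptprc, the pan-leukocyte marker, read 0.935, 0.638 and 0.973 FPKM across flox, against 1.37, 1.05 and 1.27 FPKM across HKO, with no flox library above HKO. The macrophage and Kupffer cell markers summed to 717 to 1103 FPKM for the flox mice and, for HKO, 386 to 568 FPKM, with 8 of 10 negative. Of these, 6 were lower at an unadjusted p below 0.05 by limma. The list was not uniform: Adgre1 (log2 fold change 0.06) and Timd4 (0.10) were positive, and Vsig4 (-0.06, SE 0.27) was near 0. The neutrophil markers summed to 23.3 to 49.4 FPKM and 2.71 to 4.64 FPKM, with 3 of 3 tested negative and Ly6g at 0 in every library. The erythroid markers overlapped, at 214 to 788 FPKM and 241 to 345 FPKM. The part of these cells in the proteasome values was not tested.

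Of the noncatalytic beta genes, Psmb4 and Psmb2 had the smallest p. Psmb4 read 105, 104 and 90.6 FPKM among flox mice, with 52.2, 58.8 and 56.2 FPKM among HKO mice. Its flox libraries were close to each other and far above HKO (log2 fold change -0.83, SE 0.19, adjusted p = 0.160, limma). Psmb2 read 78.2, 104 and 55.0 FPKM across flox, against 41.8, 38.4 and 38.0 FPKM across HKO, without overlap (-0.95, SE 0.27, adjusted p = 0.184, limma). Psmb1 and Psmb3 had log2 fold changes of -0.69 and -0.91, also without overlap. Psmb11, the beta subunit of the thymus, had 0 reads in all 6 libraries, which allows up to 0.0287 to 0.0409 FPKM per library (3 reads, counting error only).

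The ATPase ring consists of 6 different subunits, and 5 of their genes were negative (median -0.69). Of these, 4 were lower at an unadjusted p below 0.05, and the same number did not overlap between groups. Psmc2 read 19.2, 21.6 and 19.4 FPKM for the flox mice and, for HKO, 11.8, 13.8 and 11.7 FPKM. The flox values lay within a narrow range above HKO (log2 fold change -0.67, SE 0.19, adjusted p = 0.180, limma). Psmc4 read 55.0, 74.1 and 49.7 FPKM among flox mice, with 33.5, 36.4 and 33.1 FPKM among HKO mice (-0.77, SE 0.22, adjusted p = 0.184, limma). Psmc1 read 59.9, 60.2 and 87.4 FPKM across flox, against 40.1, 43.7 and 39.9 FPKM across HKO (-0.72, SE 0.23, adjusted p = 0.199, limma). Flox 2 was the highest library for Psmc4 and flox 3 for Psmc1, and neither gene overlapped between groups. Psmc3 and Psmc5 had log2 fold changes of -0.83 and -0.58, and Psmc5 overlapped between groups. Psmc3 shares exonic bases with Slc39a13 on the opposite strand (4.84 FPKM).

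Psmc6 was the exception in the ATPase ring. It read 13.6, 8.63 and 20.6 FPKM for the flox mice and, for HKO, 17.4, 19.3 and 17.6 FPKM. The flox libraries reached from the lowest to the highest of the 6 values, with HKO between them (log2 fold change 0.41, SE 0.32, adjusted p = 0.454, limma). The ATPases are present in equal copies in the assembled particle, whereas the means of their transcripts ran from 16.2 FPKM for Psmc6 to 59.7 FPKM for Psmc5. This range depends on the lengths used. Psmc6 had 3498 bases in the tables and 2234 in its principal annotated transcript, and Psmc5 had 1394 and 1316.

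Among the 11 non-ATPase genes, 9 were negative (median -0.33), 5 were lower at an unadjusted p below 0.05, and 5 did not overlap between groups. Psmd4, the ubiquitin receptor also known as Rpn10, lies on chr3:95032694-95042614, minus strand. It read 42.1, 52.8 and 57.3 FPKM among flox mice, with 22.6, 26.8 and 23.9 FPKM among HKO mice. Every HKO value was well below every flox value, and the p was the smallest among the members (log2 fold change -1.03, SE 0.21, adjusted p = 0.157, limma). Psmd3, a scaffold subunit of the lid, read 25.8, 39.8 and 29.6 FPKM across flox, against 16.2, 17.0 and 15.3 FPKM across HKO (-0.93, SE 0.23, adjusted p = 0.162, limma). Psmd13, another lid subunit, read 36.5, 44.3 and 29.1 FPKM for the flox mice and, for HKO, 18.1, 20.2 and 18.7 FPKM (-0.91, SE 0.22, adjusted p = 0.162, limma). Neither overlapped between groups. Psmd13 shares exonic bases with Sirt3 on the opposite strand (10.2 FPKM), so its reads are uncertain if counting ignored strand.

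The non-ATPase genes with positive values were Psmd14 and Psmd11. Psmd14 encodes the deubiquitinase that cuts ubiquitin from the substrate as it enters. It read 13.0, 6.63 and 13.7 FPKM among flox mice, with 11.5, 11.8 and 11.8 FPKM among HKO mice, with flox 2 the lowest and the other flox libraries the highest (log2 fold change 0.14, SE 0.30, adjusted p = 0.791, limma). Psmd11, a lid subunit, read 10.4, 9.61 and 13.5 FPKM across flox, against 12.8, 11.9 and 12.1 FPKM across HKO (0.15, SE 0.21, adjusted p = 0.676, limma). Of the others, Psmd8 and Psmd12 had log2 fold changes of -0.94 and -0.59 without overlap. Psmd1 and Psmd2, the large scaffolds of the base, and Psmd6 and Psmd7 of the lid lay between -0.33 and -0.08, with overlap.

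The members by name that are no subunits of the finished particle had low levels, from 0.998 to 9.64 FPKM. Psmd5, a chaperone of the ATPase ring, read 4.89, 4.11 and 3.34 FPKM for the flox mice and, for HKO, 5.26, 6.69 and 6.06 FPKM. It was the only member with all HKO values above all flox values (log2 fold change 0.50, SE 0.22, adjusted p = 0.248, limma). With the length trend removed and flox 3 left out, its value was -0.01. Psmd9, another such chaperone, read 8.11, 12.4 and 16.3 FPKM among flox mice, with 7.34, 7.01 and 6.72 FPKM among HKO mice, without overlap (-0.71, SE 0.28, adjusted p = 0.226, limma). Psmd10, also known as gankyrin, read 0.221, 0.508 and 3.91 FPKM across flox, against 0.238, 0.263 and 1.06 FPKM across HKO. Flox 3 and HKO 3 held most of its reads (-0.62, SE 0.71, adjusted p = 0.602, limma). Psmc3ip encodes a protein of meiotic recombination that binds the product of Psmc3. It read 2.11, 0.547 and 0.251 FPKM for the flox mice and, for HKO, 0.466, 1.36 and 1.26 FPKM (0.21, SE 0.52, adjusted p = 0.821, limma). It shares exonic bases with Mlx on the opposite strand (18.8 FPKM).

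**Figure D2:**
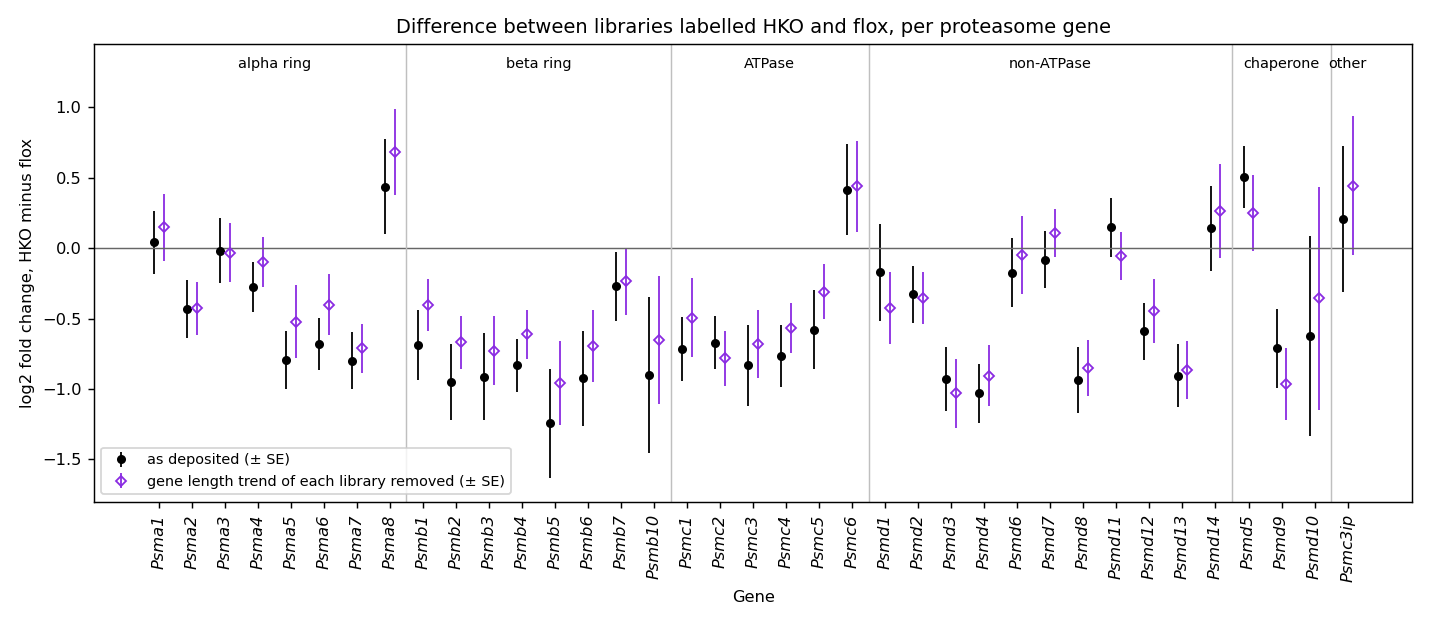
log2 fold change of HKO against flox for each tested gene with its standard error (n = 3 per group), as deposited (black) and with each library's gene length trend removed (purple). All 8 beta genes lie below 0 in both (Psmb7 turned to 0.02 under total read scaling), and no gene passed the threshold over all genes in either.

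The core and the regulatory particle were then compared. The median log2 fold change was -0.74 over the 16 tested core genes (14 negative) and -0.59 over the 17 regulatory genes (14 negative). At an unadjusted p below 0.05, 9 genes of each were lower, where 10.8% of all genes tested were. HKO lay wholly below flox in 11 core and 9 regulatory genes, and in 16.7% of all genes tested. The mean deviation of the core genes from their own means, on the log2 scale, was 0.39, 0.44 and 0.04 in flox, against -0.34, -0.22 and -0.31 in HKO. That of the regulatory genes was 0.22, 0.21 and 0.28 in flox, against -0.30, -0.15 and -0.25 in HKO. Both particles were thus lower in all HKO libraries than in any flox library.

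The difference between the particles depended on the flox library. Regulatory minus core mean deviation was -0.16, -0.23 and 0.23 in flox, against 0.04, 0.07 and 0.05 in HKO. The flox values had an SD of 0.25 and lay on both sides of HKO. The HKO minus flox difference of these values, 0.11, was within the spread between flox libraries. The difference of the medians, 0.15, is another measure and has no spread of its own here. Without flox 2 the median was -0.59 over the core and -0.60 over the regulatory genes. Flox 3 was the flox library with the lowest core and, within it, the lowest beta ring. The beta ring's mean deviation was 0.52, 0.83 and -0.08 in flox, against -0.46, -0.41 and -0.39 in HKO, whereas the alpha ring's was 0.25, 0.05 and 0.17 in flox, against -0.23, -0.02 and -0.22 in HKO.

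**Figure D3:**
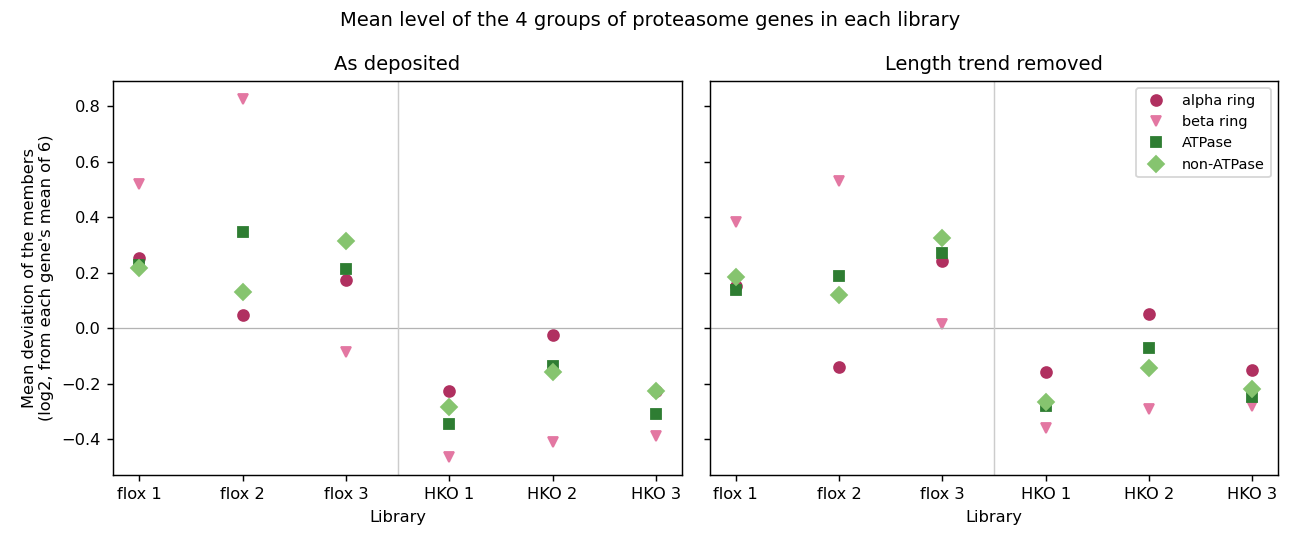
Mean deviation (log2) of the genes of the alpha ring (8), beta ring (8), ATPases (6) and non-ATPases (11) from each gene's mean of 6, per library, as deposited (left) and with the gene length trend removed (right). As deposited, the HKO libraries lie below 0 in all 4 groups; the beta ring runs from 0.83 in flox 2 to -0.08 in flox 3.

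Gene length differs between the particles and had to be accounted for. Core genes were 899 to 3894 bases long in the tables, with a median of 1911.5. Regulatory genes were 1394 to 7265 bases long, with a median of 2820, and all tested genes had a median of 3561. The log2 fold change followed length over all tested genes: the median was -0.28 in 3681 genes under 2000 bases, -0.17 in 3081 genes of 2000 to under 3500 bases and 0.19 in 7025 genes of 3500 bases or more. Proteasome genes of the core and regulatory particle were below these medians in each class. Their median was -0.80 in 11 genes under 2000 bases, -0.59 in 15 genes of middle length and -0.33 in 7 genes of 3500 bases or more. Across the 33 genes, Pearson's r between log2 fold change and log2 length was 0.389 (Spearman's rho 0.357). It was 0.515 in the core and 0.241 in the regulatory particle. These are descriptions over genes that share the same 6 libraries.

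With each library's trend on length removed, the core median was -0.47 and the regulatory median -0.45, and 0 members passed. Psmb5, the shortest member at 899 bases, moved from -1.25 to -0.96, and Psmd3, at 4967 bases, from -0.93 to -1.03. Psmd1, the longest at 7265 bases, moved from -0.17 to -0.42. At an unadjusted p below 0.05, 14 members had lower and 0 higher values. Of all 13787 genes tested, 1431 were lower and 1368 higher in that setting. The medians by length class became -0.52, -0.45 and -0.42, against -0.06, -0.05 and -0.01 for all genes. Regulatory minus core deviation was then -0.10, -0.05 and 0.18 in flox, against -0.01, 0.00 and -0.01 in HKO. The medians of the beta and alpha rings were then -0.66 and -0.25, against -0.91 and -0.35 as deposited. Without flox 2 they were closer, at -0.63 and -0.42 as deposited and -0.50 and -0.37 with the length trend removed.

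Level also went with the values. Of all genes between 8.62 and 124 FPKM, the range of 32 core and regulatory genes, 65.4% were negative, with a median of -0.26 against -0.69 for the proteasome genes. With trends on both length and level removed, the core median was -0.32 and the regulatory median -0.29. In that setting 26 members were negative and 11 positive, and the alpha ring's median was -0.01 against -0.43 for the beta ring.

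**Figure D4:**
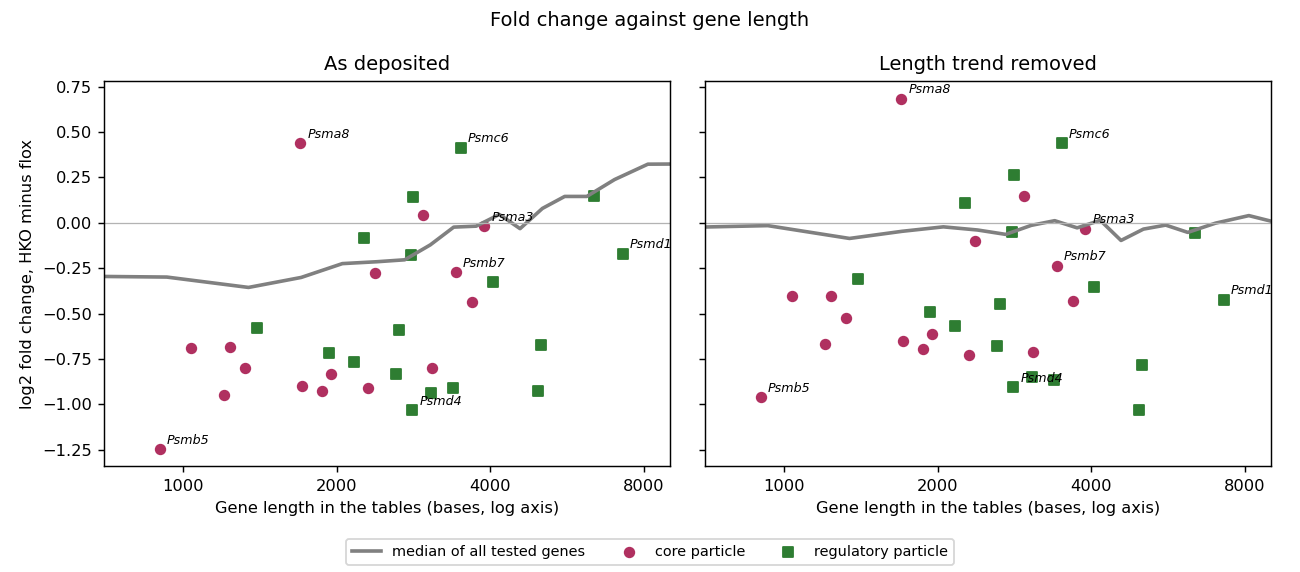
log2 fold change of HKO against flox by gene length in the tables (bases, log axis) for the 16 core and 17 regulatory genes, with the running median of all tested genes as a grey line, as deposited (left) and with the length trend removed (right). As deposited the grey line rises with length and Psmb5, the shortest gene, is lowest (without flox 2, Psmd4 is); with the trend removed the line lies near 0 and most proteasome genes stay below it.

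The calls turned on flox 3. Without it, 19 members were lower and 1 (Psmc6, log2 fold change 0.71, adjusted p = 0.0470, limma) was higher, but 19.4% of all tested genes were lower and 21% higher as well. Of the 19, 10 were core genes, 7 of them of the beta ring, and 9 were regulatory genes. Psmb5 was at -1.60 (adjusted p = 0.0161) and Psmd4 at -0.94 (adjusted p = 0.0169) by limma in that setting. The 25 alternatives gave adjusted p-values of 0.0161 to 0.619 for Psmb5, 0.0169 to 0.619 for Psmd4 and 0.0416 to 0.902 for Psmc6 by limma. The flox libraries left, flox 1 and flox 2, are those with negative slopes on gene length. With the length trend removed as well, 15 members were lower (7 core, 7 regulatory and Psmd9) and Psmc6 was higher, against 17.2% and 16.2% of all tested genes. Leaving out any other single library gave 0 members called.

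The letters of the promoters were then searched for short motifs. RefSeq windows of GRCm38.p6, from 250 bases before to 50 after the start, were matched for 31 of the 38 members. A gene could have more than 1 window and was counted where any of them held the motif. Some windows lie inside the gene as deposited, such as those of Psmb11, Psmd9 and Psmd13. The CCGGAAG of Psma6 was in a window inside the gene and not in the window at its start. Searched on both strands were CCGGAAG, a core sequence bound by ETS family factors, TGACNNNGC, the antioxidant response type of element bound by factors of the Nfe2l family, and CCAAT. In the windows printed here 0 matches overlapped another. CCGGAAG was in 9 of 14 regulatory genes (64.3%), in 1 of 13 core genes (7.69%, Psma6) and in 9.93% of 27025 genes with a window. The regulatory genes with it were Psmc1, Psmc2, Psmc6, Psmd2, Psmd4, Psmd6, Psmd11, Psmd12 and Psmd13. Their median log2 fold change was -0.59, against -0.58 for the regulatory genes that had a window without it. The 7 members with no window, Psma8, Psmb1, Psmb2, Psmb7, Psmc3, Psmd3 and Psmd7, were not searched. TGACNNNGC was in 2 core genes (15.4%, Psmb5 and Psmb6), in 2 regulatory genes (14.3%, Psmc6 and Psmd12) and in 14% of all genes. CCAAT was in 7 core genes (53.8%), 4 regulatory genes (28.6%) and 41.1% of all genes. The 7 core genes include Psmb11, which had 0 reads. A match is a description of letters and not a site in use.

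Printed here are the windows of the catalytic genes Psmb5 and Psmb6, which hold TGACNNNGC, of Psmd4, the member with the smallest p, and of Psmc6, the ATPase gene with a positive value. They run 5′ to 3′ on the gene's strand up to the RefSeq start or, where it comes first, the start of the gene in the tables, with the motifs TGACNNNGC and CCGGAAG in capitals. They cover chr14:54618023-54618245 (minus strand) for Psmb5, chr11:70525107-70525356 (plus strand) for Psmb6, chr3:95042615-95042864 (minus strand) for Psmd4 and chr14:45329574-45329787 (plus strand) for Psmc6.
Psmb5: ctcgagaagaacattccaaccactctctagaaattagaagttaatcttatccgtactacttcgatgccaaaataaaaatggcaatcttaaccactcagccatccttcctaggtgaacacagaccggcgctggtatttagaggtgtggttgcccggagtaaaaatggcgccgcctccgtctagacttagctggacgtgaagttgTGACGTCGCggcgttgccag
Psmb6: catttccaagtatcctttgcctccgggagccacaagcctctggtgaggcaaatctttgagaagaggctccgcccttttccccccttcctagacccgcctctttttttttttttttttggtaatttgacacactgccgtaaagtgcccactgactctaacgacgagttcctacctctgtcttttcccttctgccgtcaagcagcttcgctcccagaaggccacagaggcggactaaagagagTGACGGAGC
Psmd4: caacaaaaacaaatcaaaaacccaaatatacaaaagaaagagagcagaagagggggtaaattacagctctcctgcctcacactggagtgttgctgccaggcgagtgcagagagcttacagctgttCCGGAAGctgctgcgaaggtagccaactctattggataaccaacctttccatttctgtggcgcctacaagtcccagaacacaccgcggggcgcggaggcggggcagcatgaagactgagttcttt
Psmc6: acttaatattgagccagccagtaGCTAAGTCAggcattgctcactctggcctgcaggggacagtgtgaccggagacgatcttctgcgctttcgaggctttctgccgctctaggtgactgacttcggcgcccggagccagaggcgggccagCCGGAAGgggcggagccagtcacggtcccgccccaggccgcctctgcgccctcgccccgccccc
The TGACNNNGC match begins 47 bases before the RefSeq start in Psmb5 and 9 bases before it in Psmb6. Psmc6 holds both motifs, TGACNNNGC on the opposite strand 227 bases before the start and CCGGAAG 100 bases before it. In Psmd4, CCGGAAG begins 125 bases before the start. Psmd4 and Psmc6 both carry the CCGGAAG letters, with log2 fold changes of -1.03 and 0.41 (SE 0.32, groups overlapping, for Psmc6). Both genes were picked by their values, and a link between motif and fold change was not tested.

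HuR is known to bind AU-rich and U-rich stretches in 3′ untranslated regions (3′ UTRs), so ATTTA and TTATTTATT were searched in the longest annotated 3′ UTR of each gene (GENCODE M21, GRCm38). Proteasome genes had short ones, with a median of 296 bases over 37 members against 1096 bases over 11529 tested protein-coding genes. ATTTA occurred in 15 of the 37 (40.5%), against 68.2% of those genes. The longer TTATTTATT occurred in 0 of the 37 and in 7.49% of those genes. The median log2 fold change was -0.67 in the 11 core and regulatory genes with ATTTA and -0.70 in the 22 without it. No binding was measured.

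Other genes of the pathway were read from lists of partners, and 0 of them passed over all genes. Of 4 further partners of the regulatory particle, 2 were negative and 2 positive. Adrm1, a ubiquitin receptor of the particle, read 21.3, 34.4 and 24.1 FPKM among flox mice, with 12.8, 13.9 and 13.0 FPKM among HKO mice, without overlap as for Psmd4, another receptor (log2 fold change -0.95, SE 0.24, adjusted p = 0.163, limma). Usp14, a deubiquitinase on the particle, was at 0.41 and Sem1, its smallest subunit, at -0.44. Of the 4 activators, Psme1 (-0.69) and Psme2 (-0.53), subunits of the interferon-inducible cap, were negative and Psme3 and Psme4 were positive. Of 6 genes for assembly factors and the inhibitor, 5 were negative, with Psmf1, the inhibitor, at -0.56 and Psmg4 at -0.81.

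The gene for the transcription factor that raises proteasome genes, Nfe2l1, read 37.4, 43.7 and 29.4 FPKM across flox, against 45.7, 34.7 and 34.1 FPKM across HKO, with overlap (log2 fold change 0.06, SE 0.24, adjusted p = 0.898, limma). In its list of 7, 4 were positive and 3 negative, with the smallest p for Nfe2l2 (0.59) and Mafk (-0.51). Of 8 genes for shuttle factors and the segregase that hand substrates to the proteasome, 5 were positive and 3 negative, with Vcp at -0.58 and Ubqln1 at 0.54. The list of ubiquitin genes and ubiquitin-activating enzymes had 5 negative of 6. Ubb, a polyubiquitin gene, read 347, 373 and 337 FPKM for the flox mice and, for HKO, 156, 170.5 and 184 FPKM, with each HKO value far below each flox value (-1.05, SE 0.20, adjusted p = 0.147, limma). Uba6, an activating enzyme, read 0.622, 0.472 and 0.6 FPKM among flox mice, with 1.66, 1.67 and 1.74 FPKM among HKO mice, the reverse order (1.04, SE 0.21, adjusted p = 0.157, limma).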

How the data were processed

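Liver RNA of 3 flox and 3 HKO mice was compared, grouped by the sample labels, which treat the mice as separate samples and name no batch or litter. Livers were flash frozen and total RNA was extracted with TriPure, per the labels' protocols. Tools named in the submitters' processing notes are TopHat2 and HTSeq 0.6.1, with the build GRCm38.p6. Strandedness is not given in the sources used here. The authors deposited FPKM values, in 1 table per group, beside each gene's length, which per the file headers is another column. Values times length were whole multiples of 1 read (tolerance 0.01) in 100% of cases, so reads were recovered. The deposited scale of each library matched a size factor, the median ratio of its reads to the mean over libraries, and not its total.

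Values were analysed as log2(FPKM + 0.5), which understates changes of low genes, for genes whose mean reached 0.5 FPKM. Limma 3.58.1 in R 4.3.3 fitted group, with a variance trend (prior degrees of freedom 2.76), two-sided tests and Benjamini-Hochberg adjustment over 13787 genes at 0.05. Length trends were removed per library by lowess (span 0.3) on log2 length of the deviations from gene means. The code was tested on simulated data. Members and lists were chosen with earlier results of these data known. Every member was named, with values in each library for catalytic subunits, for up to 3 members each way with the smallest p per group of subunits, and for matches that are no subunits. Of each other pathway list the 2 genes with the smallest p were named. Nfe2l1, Maff, Psmb9, Usp14, Psme3, Psme4 and the single cell type markers were named after their values were seen.

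Alternatives were other pseudocounts (0.1 and 1), filters, scalings, moderation, voom, a replicate block, the length trend and leaving out libraries. Removing the trend on gene level was added after seeing the data. Table lengths equalled the union of exons in GENCODE M21 for 35 of 38 members, and 10 share exonic bases with another gene. Figures were drawn with matplotlib 3.10.9.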

Additional observations from a re-analysis of the deposited data

How the results depend on the processing

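The direction of the core and regulatory medians held in all 25 alternatives, and 0 members were called except in those without flox 3. Leaving out 1 library gave 0 to 19 members lower and 0 to 1 higher, and with the length trend removed and flox 3 left out 15 were lower and 1 higher. The core median was -0.45 under total read scaling and under voom, -0.32 under quantile normalization, -0.47 with the length trend removed (also with the replicate block), -0.40 with flox 3 and -0.50 with flox 2 also left out, -0.34 with the level trend removed and -0.32 with both trends removed. The regulatory median was -0.30 under total read scaling and voom, -0.45 under upper quartile scaling, -0.34 under quantile normalization, -0.45 with the length trend removed (also with the block), -0.34 with flox 3 also left out, -0.36 with the level trend removed and -0.29 with both. Total read scaling and voom moved the median of all genes to 0.25 and 0.32, relative to which the core median was -0.70 and -0.77. The regulatory minus core median log2 fold change ranged from -0.00683 to 0.25 when 1 library was left out, and was -0.0206 under quantile normalization, -0.034 with the length trend removed and flox 2 left out and -0.012 with the level trend removed; the cause was not tested. The Psma4 log2 fold change reversed to 0.0227 under total read scaling, 0.11 under quantile normalization, 0.0255 under voom, 0.0751 with the level trend and 0.13 with both trends removed. The Psmb7 log2 fold change reversed to 0.0205 under total read scaling and 0.0238 under voom, and the Psmd5 log2 fold change to -0.0128 with the length trend removed and flox 3 left out. The Maff log2 fold change ranged from -0.703 to 0.013 when 1 library was left out. Same-numbered libraries did not deviate together (correlations -0.0415, -0.0903 and 0.0704). With the replicate block, which rests on a shared number and not on the design, 0 members were called and 14 against 19 were lower at an unadjusted p below 0.05. Of all 13787 genes tested, 1076 were lower by that measure with the block and 1484 without it. In the 9 members within 1 SE of 0 the sign changed in 48 values over the alternatives. The wide spread between flox libraries and 3 mice per group limit what could be called.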
